A study of Homo sapiens with 8 samples.

Results

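The HOX cluster genes were taken as the rows whose gene name is HOXA, HOXB, HOXC or HOXD followed only by digits. Among the 36779 genes of the deposited count tables, 38 met that rule, 37 of them in both tables. HOXC12 was listed only for the circ0003553 arm. HOXB1 was listed in neither count table and enters only the sequence comparison. HOX genes encode transcription factors that give cells their position along the body axis. They lie in 4 clusters, and within a cluster the genes that act toward the head sit at one end and those that act in the lower trunk, limbs and urogenital tract at the other. Their proteins bind DNA through the homeodomain, often with PBX and MEIS partners. HOXB13, the last gene of its cluster, is known as a lineage factor of prostate epithelium.

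The samples were total RNA of PC3 and DU145, established human prostate cancer cell lines. In each line, 1 library came from cells transfected with a plasmid that overexpresses circ0003553 (the arm titled RCAN3) and 1 from cells given a circ0004592 plasmid (the arm titled STK3), both circular RNAs. Another 2 came from cells given the negative control plasmid, 1 for each arm. All 8 libraries thus came from transfected cultures, and no untransfected cells were analysed here. The labels do not say whether the libraries of a line came from separate cultures, so p-values measure only the spread between these libraries, which may be technical.

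Total counts were 33444940 to 35512031 per library in PC3 and 33739149 to 49926342 in DU145. The floor of 3 read pairs, or 6 counts, lay between 0.117 and 0.184 CPM (counts scaled to library size). As a check of the labels, the epithelial keratin KRT8 averaged 395 CPM in PC3 and 2076 CPM in DU145, and EPCAM 32.8 CPM in PC3 and 139 CPM in DU145. The blood cell marker PTPRC was below the floor in both lines, at 0.0289 CPM in PC3 and 0.00978 CPM in DU145. Among markers of other cells, COL1A2 was at 0 in PC3 and at 0.0263 CPM in DU145, while COL1A1 was at 24.9 CPM in PC3 and 2.27 CPM in DU145 and PECAM1 at 5.69 CPM in PC3 and 0.259 CPM in DU145. In bulk RNA, fewer cells expressing a gene and less RNA per cell cannot be told apart.

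The members were listed in 4 stretches of the genome (hg38). HOXA held 11 of them on the minus strand of chromosome 7, and HOXB held 9 between 48540894 and 48729178 on the minus strand of chromosome 17. HOXC had 9 between 53938765 and 54056030 on the plus strand of chromosome 12, and HOXD 9 between 176092891 and 176190907 on the plus strand of chromosome 2. HOXB13 lies apart from the others, with 98406 bases between it and HOXB9 and 91190 between it and the nearer edge of the longer HOXB7 row. The homeobox, the 180 bases that encode the homeodomain, is shown for 3 members that differed strongly in level between the lines, HOXB13 and HOXA13, higher in PC3, and HOXB7, higher in DU145. The coding sequences are from the transcripts of GENCODE release 29, written 5′ to 3′ on the coding strand. Capitals mark the 18 bases for 6 residues of the DNA recognition helix, by which each homeobox was located.
HOXB13 (chr17:48726820-48726999, minus strand): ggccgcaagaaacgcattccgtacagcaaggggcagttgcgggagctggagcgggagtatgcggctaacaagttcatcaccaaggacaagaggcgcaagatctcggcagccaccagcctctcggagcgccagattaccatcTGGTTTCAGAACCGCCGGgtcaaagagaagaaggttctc
HOXA13 (chr7:27198222-27198401, minus strand): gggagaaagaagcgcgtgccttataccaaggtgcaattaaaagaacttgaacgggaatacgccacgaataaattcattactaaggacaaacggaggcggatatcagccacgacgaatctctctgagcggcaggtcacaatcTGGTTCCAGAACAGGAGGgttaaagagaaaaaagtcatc
HOXB7 (chr17:48607908-48608087, minus strand): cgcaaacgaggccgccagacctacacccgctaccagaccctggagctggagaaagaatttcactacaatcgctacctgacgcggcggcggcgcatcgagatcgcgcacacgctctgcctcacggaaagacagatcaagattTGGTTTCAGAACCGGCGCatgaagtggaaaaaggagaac

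Over these 180 bases, HOXB13 and HOXA13 were identical at 69.4% of positions. HOXB13 and HOXB7, both on chromosome 17, shared 52.2%. Across the 39 human HOX genes of that annotation, the median identity was 81.7% between members of the same paralog group, that is, the same position in different clusters (42 pairs), and 60.6% between all other pairs (699 pairs). The longest exact run of bases that transcripts of members from different clusters shared was 62 bases, between HOXB3 and HOXD3. That is shorter than a read of 150 bases.

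The HOX signal of PC3 was dominated by HOXB13 and that of DU145 by HOXB7. Levels of different genes are compared here in the deposited RPKM, reads per kilobase of gene and per library total, which takes gene length into account. HOXB13 averaged 65.5 ± 13.6 RPKM in PC3 and 0.0272 ± 0.0216 RPKM in DU145 (SD over the 4 libraries of a line, circRNA and control together). HOXB7, a member of the middle of the cluster linked to growth factor expression in melanoma, averaged 0.926 ± 0.349 RPKM in PC3 and 79.7 ± 11.1 RPKM in DU145. Of the summed RPKM of all listed members, HOXB13 made up 48.5% to 58.6% in PC3 libraries and at most 0.0290% in DU145 libraries. HOXB7 made up 0.526% to 0.953% in PC3 libraries and 43.5% to 51.8% in DU145 libraries.

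**Figure D1:**
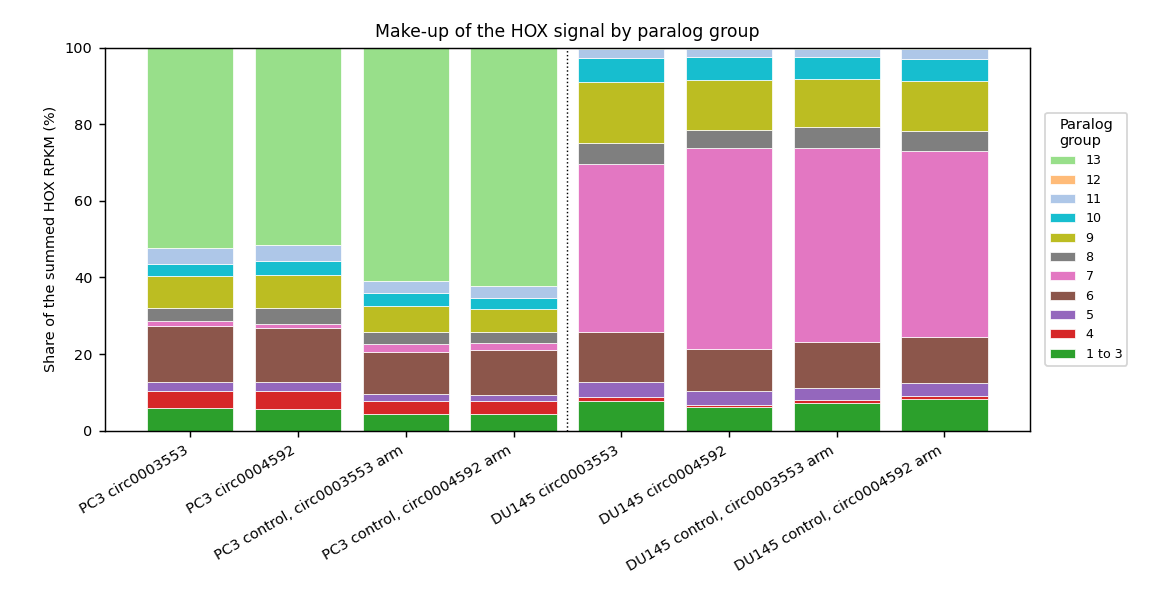
Stacked bars show the share (%) of the summed RPKM of all listed HOX genes that falls to each paralog group (position in the cluster, with groups 1 to 3 together) in the 4 PC3 and the 4 DU145 libraries. Group 13 takes 51.5% to 62.1% in PC3 and at most 0.420% in DU145, and group 7 takes 1.27% to 1.96% in PC3 and 44.0% to 52.5% in DU145.

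HOXB6 was the second highest member in both lines, at 11.2 ± 0.784 RPKM in PC3 and 16.9 ± 0.509 RPKM in DU145. Behind it came HOXA9 in PC3, at 5.29 ± 0.196 RPKM in PC3 and 0.686 ± 0.0203 RPKM in DU145, and HOXC9 in DU145, at 1.88 ± 0.451 RPKM in PC3 and 12.9 ± 0.465 RPKM in DU145. In PC3 the order went on with HOXA11 at 4.43 ± 0.242 RPKM, HOXC8 at 3.32 ± 0.322, HOXC6 at 3.28 ± 0.128, HOXB3 at 3.22 ± 0.543, HOXA13 at 2.96 ± 0.523 and HOXA10 at 2.64 ± 0.277. From HOXC8 to HOXA10, the ranges of mean ± SD of neighbours in that order overlapped. In DU145 it went on with HOXB9 at 8.06 ± 1.08 RPKM, HOXC10 at 6.72 ± 0.607, HOXC8 at 5.89 ± 0.753, HOXA11 at 3.60 ± 0.341 and HOXB3 at 3.42 ± 0.417, where the ranges of mean ± SD overlapped between HOXB9 and HOXC10, between HOXC10 and HOXC8, and between HOXA11 and HOXB3. The 4 clusters together summed to 111 to 137 RPKM in PC3 libraries and 152 to 177 RPKM in DU145 libraries, so no PC3 library reached the lowest DU145 library. HOXB held 69.8 ± 3.05% of the sum in PC3 and 70.8 ± 1.75% in DU145, although a different gene carried it in each line. HOXA held 18.3 ± 1.50% in PC3 and 9.87 ± 0.672% in DU145, HOXC 10.4 ± 0.985% in PC3 and 18.4 ± 1.24% in DU145, and HOXD 1.48 ± 0.589% in PC3 and 0.892 ± 0.134% in DU145.

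**Figure D2:**
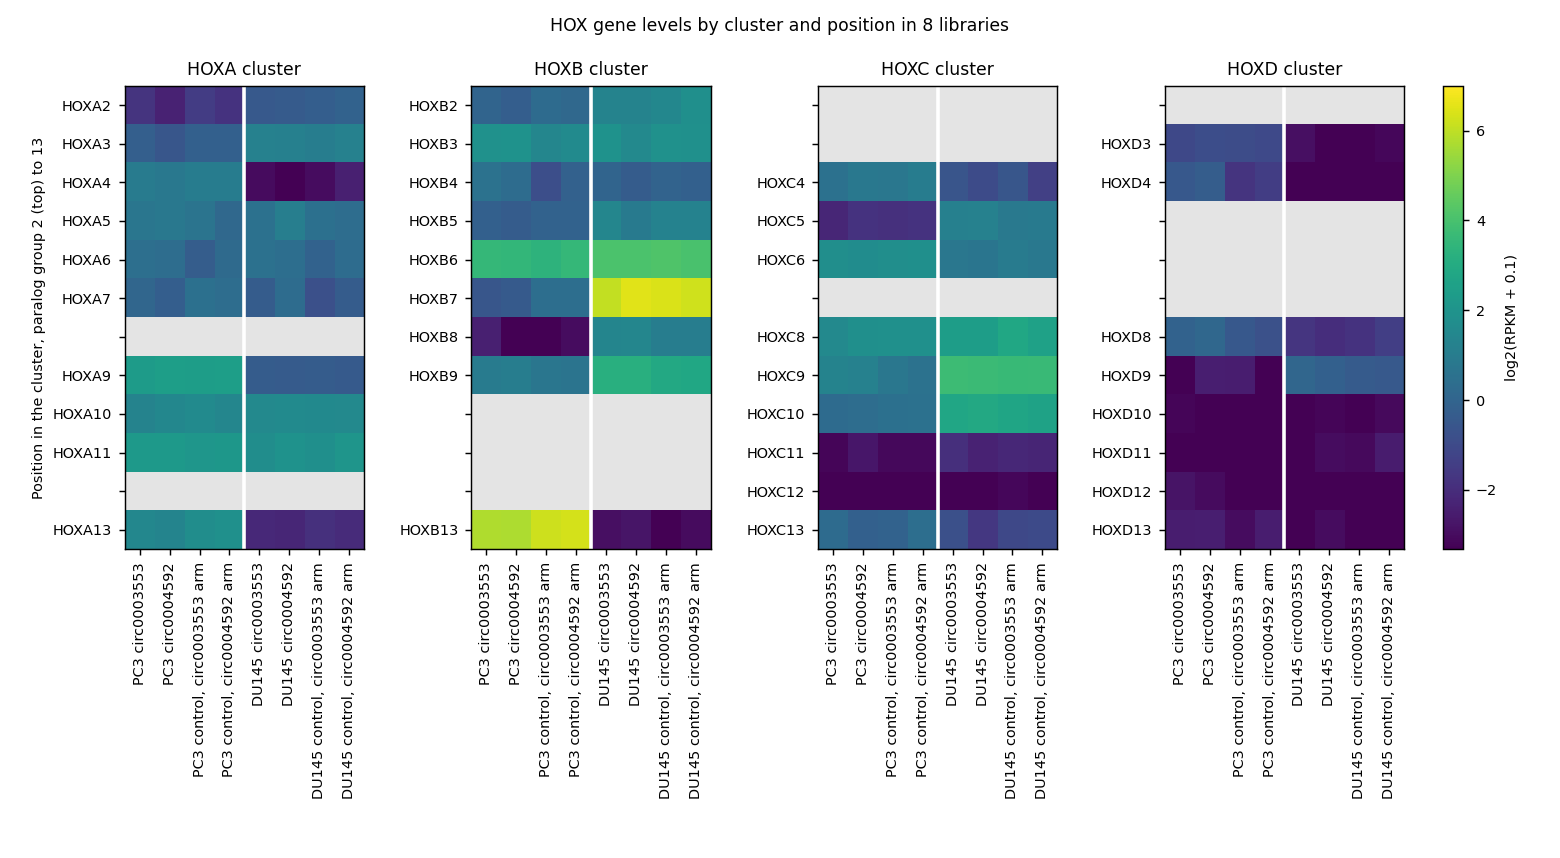
Each panel is a cluster, each row a position, and each column a library, with PC3 left of the white line and DU145 right of it; colour gives log2(RPKM + 0.1), grey marks positions with no listed gene, and rows start at position 2. The brightest cells are HOXB13 in PC3 and HOXB7 in DU145, HOXA4 is dark only in DU145, and positions 10 to 13 of HOXD are dark throughout.

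Of the 38 listed members, 30 reached at least 1 CPM in at least 2 libraries and were tested. The 8 others were HOXC11, HOXC12, HOXD1, HOXD4, HOXD10, HOXD11, HOXD12 and HOXD13. HOXD4, in paralog group 4, had 30 counts with circ0003553, 35 with circ0004592 and 10 and 14 in the controls in PC3, and 0 in all 4 DU145 libraries. By mean CPM over the 4 libraries of a line, it was at least 4.45-fold higher in PC3, with DU145 set to the floor of 6 counts in each library. HOXD1 went the other way, with 1 to 4 counts per library in PC3 and 20 to 43 in DU145, and HOXC11 had 1 to 6 counts in PC3 and 11 to 26 in DU145. HOXD13 had 2 to 6 counts in PC3 and at most 2 in DU145. HOXD10, HOXD11, HOXD12 and HOXC12 had at most 6 counts in any library.

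PC3 and DU145 differed in 24 of the 30 tested members, 10 higher and 14 lower in PC3, by edgeR's quasi-likelihood test with Benjamini-Hochberg adjustment over the 17877 genes tested. That is 80% of the members, where 76.8% of all tested genes passed, 38.5% higher and 38.4% lower in PC3, and the difference between these shares was not tested. The median absolute log2 fold was 1.81 over the tested members and 0.79 over all tested genes, which were not matched for level. The 10 that were higher in PC3 were HOXA4, HOXA9, HOXA11, HOXA13, HOXB13, HOXC4, HOXC6, HOXC13, HOXD3 and HOXD8. The 14 that were lower included HOXB2, HOXB5, HOXB6, HOXB7, HOXB8, HOXB9, HOXC5, HOXC8, HOXC9, HOXC10 and HOXD9. HOXA5, HOXA6, HOXA7, HOXA10, HOXB3 and HOXB4 did not pass, with log2 folds between -0.12 and 0.51.

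**Figure D3:**
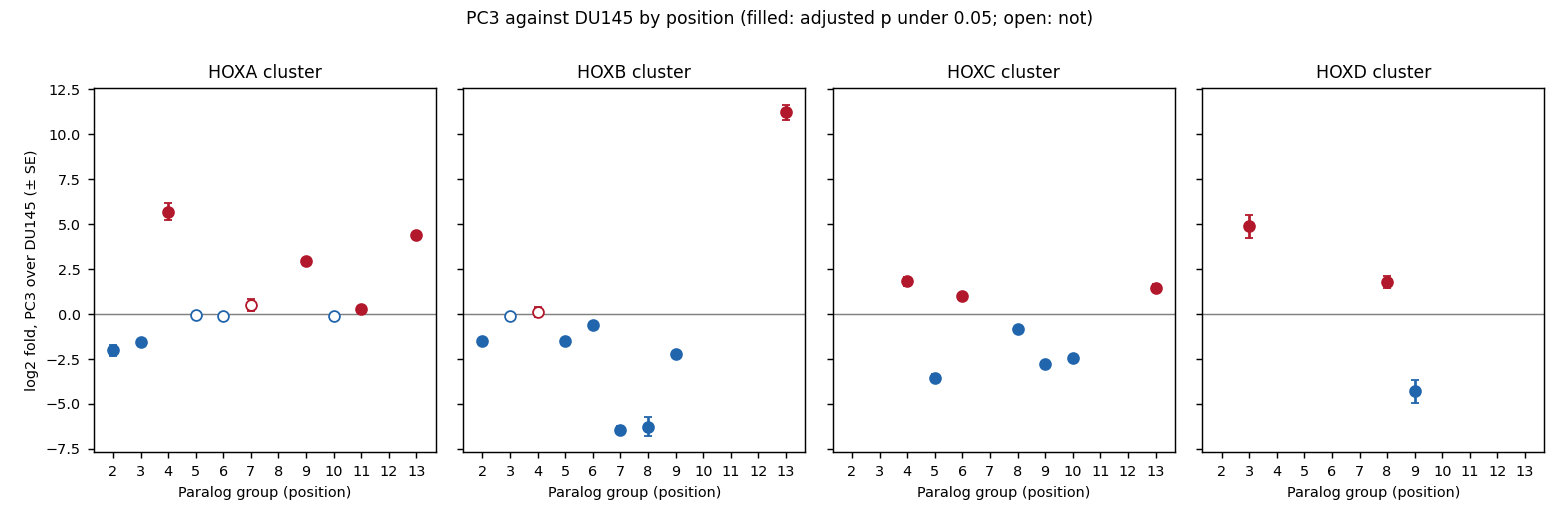
The log2 fold of PC3 over DU145 (points, ± SE from edgeR) is plotted against position for the tested members from position 2 on, one panel per cluster, with filled points past an adjusted p of 0.05. HOXA13, HOXB13 and HOXC13 lie above 0, HOXB7 and HOXB8 lie lowest, and HOXA2 and HOXA3 lie below 0 but HOXD3 above.

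By cluster, HOXA had 4 members higher and 3 lower in PC3 of 11 tested, and HOXB 1 higher and 6 lower of 9. HOXC had 3 higher and 4 lower of 7, and HOXD 2 higher and 1 lower of 3.

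At the far end of the clusters, the 3 tested members of group 13 were all higher in PC3. HOXB13 (chromosome 17, 48724763 to 48729178) had 191 CPM with circ0003553, 186 with circ0004592 and 254 and 275 in the controls of PC3, against 0.117 CPM with circ0003553, 0.184 with circ0004592 and 0 and 0.0785 in the controls of DU145. Its DU145 counts were 6, 6, 0 and 3, at or under the floor, while no PC3 library had fewer than 6216. The ratio of the summed counts, scaled to library size, was 2548 (95% Clopper-Pearson interval 1265 to 6104 on read pairs), and the fitted log2 fold was 11.23 ± 0.41 (SE; adjusted p = 6.27e-07), a size that depends on the prior count of the fit. HOXB13 ranked 38 from the top of the 17877 tested genes by log2 fold. HOXA13, which patterns limbs and the urogenital tract (chromosome 7, 27193503 to 27200106), had 13.5 CPM with circ0003553, 12.5 with circ0004592 and 16.3 and 17.9 in the controls of PC3, against 0.613 to 0.857 CPM in DU145. The groups were far apart, with a log2 fold of 4.39 ± 0.13 (adjusted p = 3.31e-07). HOXC13, a factor of hair and nail formation, differed less, with 1.95 to 2.95 CPM in PC3 and 0.552 to 1.11 CPM in DU145 (log2 fold 1.45 ± 0.21, adjusted p = 0.000433).

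In groups 9 to 11, posterior genes of trunk, limb and genital tract, members past the threshold went in opposite directions between clusters only in group 9. HOXA9, best known from leukaemia, had 15.5 to 16.4 CPM in PC3 and 1.99 to 2.15 CPM in DU145, a log2 fold of 2.94 ± 0.11 (adjusted p = 5.86e-07). Its paralogs were lower in PC3. HOXB9 had 3.70 to 5.16 CPM in PC3 and 17.9 to 23.8 CPM in DU145 (log2 fold -2.23), and HOXC9 2.31 to 3.96 CPM in PC3 and 20.6 to 22.6 CPM in DU145 (log2 fold -2.80). HOXD9 was under the floor in PC3, with 0 to 5 counts, against 46 to 91 counts in DU145, a DU145 over PC3 ratio of 20.2 (8.42 to 63.3). HOXC10 averaged 2.91 ± 0.208 CPM in PC3 and 15.7 ± 1.71 CPM in DU145 (SD over 4 libraries; log2 fold -2.43), while HOXA10 had 8.79 to 11.1 CPM in PC3 and 10.2 to 11.4 CPM in DU145, within the spread of the libraries. HOXA11, needed for the uterus in the mouse, was higher in PC3 by a log2 fold of 0.30 (adjusted p = 0.0377), with 9.59 to 10.9 CPM in PC3 and 7.34 to 9.26 CPM in DU145. That call was lost with DESeq2 (adjusted p = 0.0511), in the control libraries alone (0.173) and without any 1 of 6 of the 8 libraries (0.0830 to 0.141; it held without either control of the circ0004592 arm).

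In the middle of the clusters, HOXB7 and HOXB8 were the members furthest below DU145. HOXB7 (chromosome 17, 48607227 to 48633572) had 0.906 CPM with circ0003553, 1.02 with circ0004592 and 1.85 and 1.86 in the controls of PC3, against 98.4, 145, 129 and 116 CPM in the same order in DU145. The DU145 over PC3 ratio was 83.9 (68.8 to 103), and the fitted log2 fold was -6.45 ± 0.22 (adjusted p = 4.83e-07). HOXB8, known from mouse myeloid leukaemia cells (chromosome 17, 48611377 to 48614939), had 6, 0, 0 and 2 counts in PC3 and 155 to 259 counts in DU145, a ratio of 79.6 (30.9 to 294) in favour of DU145. The adjacent HOXB6 had 25.9 to 30.8 CPM in PC3 and 42.3 to 45.7 CPM in DU145, a log2 fold of -0.60 ± 0.09 (adjusted p = 0.000414). Along HOXB the log2 fold was -1.50 at HOXB2, -0.09 at HOXB3 and 0.14 at HOXB4 (neither past the threshold), -1.49 at HOXB5, -0.60 at HOXB6, -6.45 at HOXB7, -6.26 at HOXB8, -2.23 at HOXB9 and 11.23 at HOXB13. HOXC5 was also lower in PC3, with 0.211 to 0.334 CPM against 3.05 to 4.17 CPM in DU145 (log2 fold -3.56). HOXC6 was higher, with 3.28 ± 0.128 RPKM in PC3 and 1.65 ± 0.134 RPKM in DU145 (SD over 4 libraries; adjusted p = 7.66e-05), and HOXD8 too, with 1.25 to 2.58 CPM in PC3 and 0.429 to 0.732 CPM in DU145 (log2 fold 1.79). HOXC8 had 6.26 ± 0.551 CPM in PC3 and 11.1 ± 1.37 CPM in DU145 (log2 fold -0.82).

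In groups 2 to 4, the hindbrain and neck genes, HOXA2, HOXA3 and HOXB2 were lower in PC3 by log2 folds between -2.02 and -1.50. HOXA3, which patterns throat structures, had 2.52 to 3.41 CPM in PC3 and 8.44 to 9.47 CPM in DU145. HOXA4, of the same cluster, went the other way. It had 97 to 120 counts per library in PC3, or 2.91 to 3.37 CPM, and 0 to 6 counts in DU145, all at or under the floor (ratio 54.1, interval 22.8 to 168; log2 fold 5.71 ± 0.45, adjusted p = 1.90e-05). HOXC4 (log2 fold 1.83) and HOXD3 (4.88) were also higher in PC3, and HOXD3 had 45 to 53 counts in PC3 and 0 to 6 in DU145. By the exon coordinates deposited with the counts, some members share exonic bases with another gene on the same strand. The share is 62.2% for HOXD3, 80.5% for HOXD4, 59.9% for HOXC5 and 31.0% for HOXA4. Counts of these members thus cannot be assigned to 1 transcript with certainty. The share that lies opposite another gene is 62.5% for HOXA7, 57.4% for HOXD1, 39.3% for HOXA6 and 30.6% for HOXA11. Whether counting used strand is not given in the sources used here, so reads of these members and of the opposite genes cannot be told apart with certainty. HOXB13, HOXA13, HOXB7, HOXB8, HOXB9 and HOXD9 overlap no other exon on either strand.

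The transcripts next to HOXB13 were counted in PC3 and at or near 0 in DU145, while HOXB7, HOXB8 and HOXB9 on the other side of the gap were lower in PC3. PRAC1, a small nuclear protein gene of prostate, rectum and colon (chromosome 17, 48721719 to 48722522), had 10.1 CPM with circ0003553, 10.9 with circ0004592 and 15.1 and 17.2 in the controls of PC3, and 0 counts in all 4 DU145 libraries. It was at least 90.3-fold higher in PC3 with DU145 at the floor. PRAC2 (chromosome 17, 48723168 to 48724758) had 8.00 to 12.9 CPM in PC3 and at most 0.157 CPM in DU145 (log2 fold 7.58 ± 0.36, adjusted p = 1.80e-06). The noncoding transcripts HOXB13-AS1_1 and CTD-2377D24.4 had 167 to 262 and 75 to 111 counts per library in PC3 and 0 in every DU145 library. The HOXB13-AS1_1 row, at 48723188 to 48723314, lies within the stretch of PRAC2 on the same strand. Whether HOXB13-AS1_1 and PRAC2 are separate transcripts was not tested. Past HOXB13, TTLL6 was higher in PC3 by a log2 fold of 4.26 ± 0.36 and CALCOCO2 by 1.13 ± 0.21. In HOXD, MIR10B, whose row lies within the stretch of HOXD3, had 27 to 71 counts in PC3 and 0 to 1 in DU145. In total RNA libraries such a row can count reads of longer RNA.

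**Figure D4:**
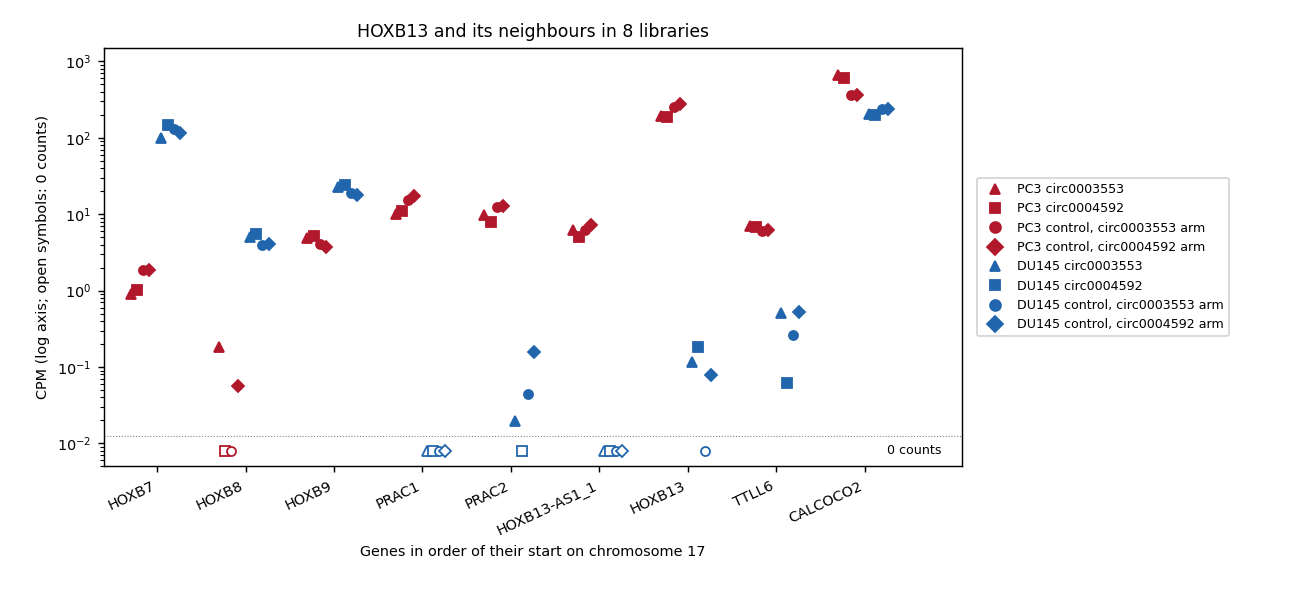
CPM (log axis) of HOXB13 and 8 neighbouring genes in order along chromosome 17, with PC3 libraries in red and DU145 libraries in blue; the marker gives the treatment and arm, and open markers stand for 0 counts. PRAC1, PRAC2, HOXB13-AS1_1 and HOXB13 are present in PC3 and at or near 0 in DU145, and HOXB7, HOXB8 and HOXB9 are lower in PC3. The HOXB13-AS1_1 row lies within the stretch of PRAC2 on the same strand.

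Among other genes tied to the clusters, the lists described here were chosen with earlier results of these data known, and their counts stand beside the 38.5% of all tested genes that were higher and 38.4% that were lower in PC3. Of 15 tested noncoding RNAs of the HOX clusters, 7 were higher and 6 lower in PC3. They included HOTTIP, transcribed from the far end of HOXA beside HOXA13, with 2.70 ± 0.352 CPM in PC3 and 0.0404 ± 0.0578 CPM in DU145 (log2 fold 6.09), HOXD-AS2 (4.44) and HOXC-AS3 (-3.56), whose gene lies beside HOXC10. HOTAIR, of the HOXC cluster, did not pass, with 1.65 ± 0.253 CPM in PC3 and 1.50 ± 0.353 CPM in DU145 (SD over 4 libraries). Of 8 tested cofactors, 3 were higher, among them PBX4 (1.11) and MEIS1 (1.07), and 2 were lower (PBX3 at -1.42 and PBX2 at -0.86). MEIS1 had 2.81 to 4.81 CPM in PC3 and 1.73 to 2.25 CPM in DU145. Of 13 tested flanking genes, 6 were higher and 5 lower in PC3. Of 29 Polycomb and trithorax genes, which hold HOX clusters silent or active, 10 were higher and 15 lower. The Polycomb subunits EZH2 and EED were lower in PC3, by log2 folds of -1.43 and -1.46, as was WDR5 (-1.58), and CBX7 was higher (1.53). Of 5 tested upstream factors, 3 were lower, among them the retinoic acid receptor RARA (-1.18), and none was higher. Of 9 tested prostate lineage genes, HOXB13 included, 5 were higher and 4 lower. KLK3, which encodes the secreted protease PSA, was below the floor in both lines.

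With either circRNA in PC3, HOXB13 and HOXB7 fell and HOXB3, HOXB4 and HOXC9 rose, each library being tested against both PC3 controls. The circRNA group held 1 library, so its spread was taken from the controls of the lines (2 residual degrees of freedom). The quasi-likelihood fit also draws on the spread of all tested genes, so the p-values do not rest on these controls alone. HOXB13 fell by 0.47 ± 0.07 on the log2 scale with circ0003553 (adjusted p = 1.42e-05) and by 0.51 ± 0.07 with circ0004592 (5.29e-06). Against the control of its own arm, it had 191 CPM with circ0003553 and 254 in the control, a ratio of 0.753 (0.719 to 0.788, counting error only). With circ0004592 it had 186 CPM, and 275 in the control of that arm, a ratio of 0.678 (0.648 to 0.709). Both circRNA libraries lay below both controls. On RPKM with limma the same folds had adjusted p = 0.0924 and 0.0945, and DESeq2 kept both calls. The comparisons of the circRNAs share the PC3 controls.

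PRAC1 and PRAC2, beside HOXB13, were also lower in part. PRAC1 fell by 0.67 ± 0.16 with circ0003553 (adjusted p = 0.00201) and by 0.57 ± 0.15 with circ0004592 (0.00798). PRAC2 fell by 0.66 ± 0.18 with circ0004592 (adjusted p = 0.00709) and had a log2 fold of -0.39 with circ0003553 (0.0964). CALCOCO2, further past HOXB13, rose by 0.87 ± 0.05 and 0.73 ± 0.05. HOXA13 fell by 0.46 ± 0.14 with circ0004592 (adjusted p = 0.0181), with 12.5 CPM against 16.3 and 17.9 in the controls, and had a log2 fold of -0.34 with circ0003553 (0.0695). With DESeq2 the calls of PRAC1, PRAC2 and HOXA13 were lost, with adjusted p between 0.144 and 0.353. Without the control of the circ0004592 arm, the circ0004592 folds were -0.38 for HOXA13 (adjusted p = 0.107) and -0.47 for PRAC1 (0.0702). HOXB7 fell within its low level in PC3, to 30 counts with circ0003553 and 34 with circ0004592, against 66 and 67 in the controls (log2 folds of -1.03 and -0.86, adjusted p = 0.00562 and 0.0171).

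HOXB4, known for expanding blood stem cells, had 5.22 CPM with circ0003553 and 4.41 with circ0004592, against 1.71 and 3.01 CPM in the PC3 controls, and log2 folds of 1.15 ± 0.26 and 0.90 ± 0.26 (adjusted p = 0.00134 and 0.013). The controls themselves lay far apart, and without the control of the circ0003553 arm the fold with circ0004592 was 0.55 (adjusted p = 0.142). HOXB3 had 27.3 CPM with circ0003553 and 27.8 with circ0004592, against 19.0 and 22.0 in the controls (log2 folds 0.41 and 0.44, adjusted p = 0.00293 and 0.00189). HOXC9 had 3.96 CPM with circ0003553 and 3.72 with circ0004592, against 2.69 and 2.31 in the controls (log2 folds 0.66 and 0.57, adjusted p = 0.00815 and 0.0248). Without the control of the circ0004592 arm, the fold of HOXC9 with circ0004592 was 0.46 (adjusted p = 0.118). HOXC-AS2, whose exons overlap those of HOXC9 on the opposite strand, rose with both as well, by 1.53 and 1.05. The strand setting of the counting is not given in the sources used here, so reads of HOXC9 and HOXC-AS2 cannot be told apart with certainty. HOXB3 and HOXB4 overlap on the same strand. Of the exonic bases of HOXB4, 17.1% also belong to HOXB3 or MIR10A, and of those of HOXB3, 7.94% to HOXB4 or HOXB6. The rises of HOXB3 and HOXB4 are thus not fully separate counts. The calls of HOXB3, HOXB4 and HOXC9 were lost with DESeq2, with adjusted p between 0.0540 and 0.213.

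In all, 3 members rose and 2 fell with circ0003553 in PC3, where 14.3% of all tested genes rose and 14.5% fell. With circ0004592, 3 rose and 3 fell, where 12.3% of all tested genes rose and 13.5% fell. In either direction, 16.7% of the members passed with circ0003553 and 20% with circ0004592. The shares of all tested genes just given are for each direction alone. For either direction they add up, and with each circRNA the sum is larger than the share of the members. Neither share of the members was tested against that of all genes. The median absolute log2 fold was 0.30 for members and 0.23 for all genes with circ0003553, and 0.41 for members and 0.21 for all genes with circ0004592. Members and all genes were not matched for level in these medians, and HOXB8 and HOXD9 had at most 6 counts in any PC3 library. Below the filter, HOXD4 had 30 and 35 counts with circ0003553 and circ0004592, against 10 and 14 in the PC3 controls, and MIR10B rose by 1.24 ± 0.40 and 1.32 ± 0.40 (adjusted p = 0.0230 and 0.0170). HOXD8, on the same chromosome, had log2 folds of 0.67 and 0.84 (adjusted p = 0.179 and 0.0907). Of the 8 tested cofactors, 1 rose and 1 fell with circ0003553 and 1 fell with circ0004592 in PC3, and none passed in DU145. PKNOX1 fell with both circRNAs (-0.89 and -0.79) and MEIS2 rose with circ0003553 (0.38). Of the 15 tested noncoding RNAs, 1 rose and 1 fell with circ0003553 and 1 rose and 2 fell with circ0004592 in PC3, and none passed in DU145.

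**Figure D5:**
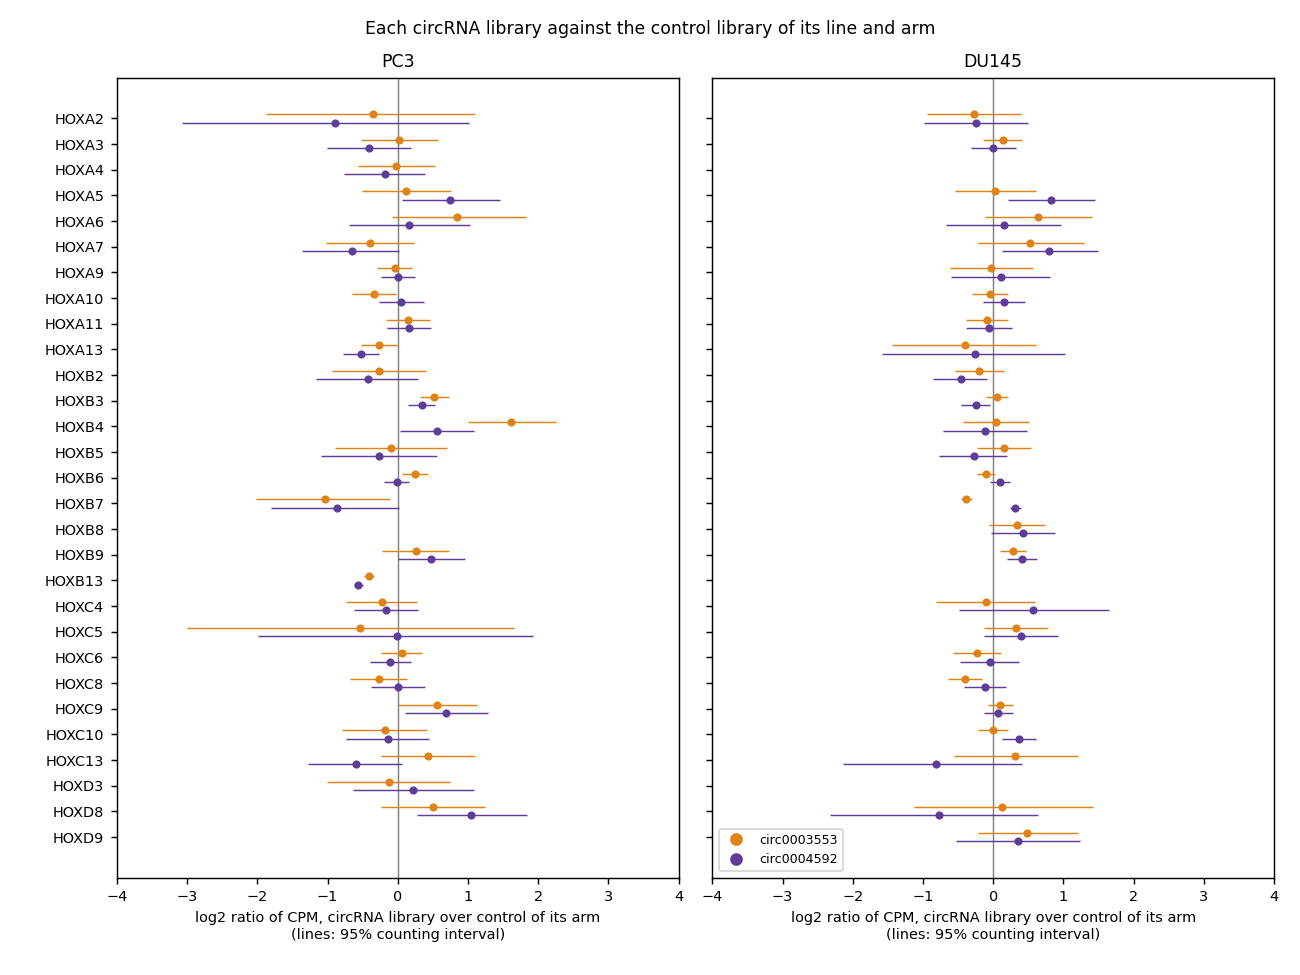
For each tested member from position 2 on, points give the log2 ratio of CPM of each circRNA library over the control of its line and arm, with lines for the 95% counting interval; ratios with 6 counts or fewer on either side are not drawn. In PC3 both points lie left of 0 for HOXB13 (0.753 and 0.678 as ratios) and right of 0 for HOXB3, HOXB4 and HOXC9; in DU145 the points of HOXB7 lie on opposite sides of 0.

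In DU145, 3.33% of the members passed with circ0003553 and 10% with circ0004592, in either direction. The shares of all tested genes given next are for each direction alone and add up for either direction. With each circRNA the sum is larger than the share of the members, and the difference was not tested. With circ0003553, HOXB7 fell by 0.32 ± 0.07 (adjusted p = 0.00425) and no member rose, where 6.27% of all tested genes fell and 4.62% rose. With circ0004592, HOXA7 rose by 1.06 ± 0.30 (adjusted p = 0.0255), HOXB9 by 0.38 ± 0.11 (0.0297) and HOXB7 by 0.24 ± 0.07 (0.0252), and no member fell, where 5.93% of all tested genes rose and 4.51% fell. HOXB7 had 98.4 CPM with circ0003553 and 145 CPM with circ0004592, and the controls lay between, at 129 and 116 CPM. HOXB9 had 23.8 CPM with circ0004592 and 22.8 with circ0003553, against 18.8 and 17.9 in the controls, and its fold of 0.32 with circ0003553 had an adjusted p of 0.0573. HOXA7 had 95 counts with circ0004592 and 84 with circ0003553, against 52 and 64 in the controls. By the deposited exon coordinates, 62.5% of the exonic bases of HOXA7 lie opposite HOXA-AS3. Each of these calls was lost without 1 of the DU145 controls. HOXB7 with circ0003553 had an adjusted p of 0.0930 without the control of the circ0003553 arm, and with circ0004592 it had 0.245 without the control of the circ0004592 arm. HOXA7 had 0.179 and HOXB9 0.0945 without the control of the circ0003553 arm, and 0.0509 and 0.189 without that of the circ0004592 arm. HOXB13 stayed at 6 counts or fewer in every DU145 library.

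Over both lines together, each line and arm being its own block, no gene of the genome passed for either circRNA by edgeR, so 0% of tested genes and 0 of 30 members were called. At an unadjusted p under 0.05 there were 519 genes and no member with circ0003553. With circ0004592 there were 542 genes and 2 members, HOXA5 (log2 fold 0.79) and HOXB9 (0.44). DESeq2 called 11 genes with circ0003553 and 13 with circ0004592, none of them a member, but with circ0003553 it gave no adjusted p for 26 of the 30 members.

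The test of the difference between lines, PC3 minus DU145, found 2 members for circ0003553, both with a higher fold in PC3, where 12.1% of all tested genes had a higher fold and 10.5% a lower fold. HOXB4 had log2 folds of 1.15 in PC3 and 0.11 in DU145, and HOXC9 of 0.66 in PC3 and 0.07 in DU145. HOXC9 lost this call without any 1 of 3 controls (adjusted p = 0.0807 to 0.153), the PC3 control of the circ0003553 arm excepted, and HOXB4 lost it without any 1 of 3 (0.0910 to 0.153), the PC3 control of the circ0004592 arm excepted. For circ0004592, 2 members had a higher and 2 a lower fold in PC3, where 9.79% of all tested genes were higher and 10.5% lower. HOXB3 had 0.44 in PC3 and -0.27 in DU145, and HOXB4 0.90 in PC3 and -0.19 in DU145, a difference with adjusted p between 0.104 and 0.157 without any 1 of the same 3 controls. HOXB7 had -0.86 in PC3 and 0.24 in DU145, and HOXA7 had -0.72 in PC3 and 1.06 in DU145. HOXB13 was at or under the floor in all DU145 libraries, so its difference is not given.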

How the data were processed

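RNA was depleted of ribosomal RNA and sequenced as pairs of 150 bases from stranded libraries with molecular identifiers, per the labels' protocols. Per the submitters' processing notes, the authors used Trimmomatic 0.36, featureCounts of Subread 1.5.1, edgeR 3.12.1 and hg38. Which aligner and annotation release were used, whether counting used strand, and whether identifiers were collapsed are not given in the sources used here. The deposited tables, 1 pair per arm, hold raw counts per gene and RPKM per gene. The RPKM equal the deposited counts divided by gene length and library total.

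Genes with at least 1 CPM in at least 2 of the 8 libraries (17877) were tested on the counts in edgeR 4.0.16 (quasi-likelihood test, TMM factors), under R 4.3.3 with limma 3.58.1. CPM are scaled to the effective library size. The threshold was an adjusted p of 0.05 over all tested genes. The quasi-likelihood fit moderates the spread of each gene with that of all tested genes, beyond the residual degrees of freedom given below. The SE is the absolute log2 fold divided by the square root of F. Lines were compared with a block per arm and treatment (3 residual degrees of freedom). Each circRNA was compared within a line against both controls in a fit of 6 groups (2 residual degrees of freedom), where a lone library is assumed to vary like the controls, and over both lines with a block per line and arm (2). Fold changes against the control of the own arm used a prior count of 2 and have no test. The controls of a line differed by more than sampling noise (mean chi-square per gene on read pairs 2.15 in PC3 and 2.37 in DU145). Between 64.9% and 66.1% of counts from 1 to 20 were even, so the read pair was the unit for floors and intervals, which cover counting error only. A gene missing from 1 table was given 0 there.

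The members, the other gene lists and the tests were chosen with earlier results of these data known. Listed members are given by value or count, except that some items are not reported here. In the line comparison, up to 4 genes of each other list past the threshold were named by absolute fold, with PRAC1, PRAC2 and MEIS1 in any case. HOTAIR, KLK3, MEIS2, PKNOX1, HOXC-AS2, MIR10B and the other transcripts beside HOXB13 were named after their values were seen. Of the alternatives, DESeq2 1.42.0, its size factors, no filter, a filter of 5 CPM, limma on log2(RPKM + 0.1) and leaving out each library were run for the tested results. TMM factors over all listed genes were added after the data were seen. Homeobox sequences are from GENCODE release 29. Exon overlaps are from the exon coordinates deposited with the counts, whose annotation release is not given. The fits were tested on simulated data, and figures were drawn with matplotlib 3.10.9 in Python 3.11.15.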

Additional observations from a re-analysis of the deposited data

Results flagged for a closer look

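For 6 member and circRNA pairs the effect differed between PC3 and DU145 by the test of the difference itself. These were 6.67% of the tested members with circ0003553 and 13.3% with circ0004592. Of all tested genes, 12.1% had a higher and 10.5% a lower fold in PC3 with circ0003553, and 9.79% and 10.5% with circ0004592. With each circRNA the sum of both directions is larger than the share of the members, and the difference was not tested. The difference PC3 minus DU145 in log2 fold, by edgeR's quasi-likelihood test with adjustment over all tested genes, was 1.04 ± 0.36 for HOXB4 with circ0003553 (adjusted p = 0.0383). It was 0.59 ± 0.21 for HOXC9 with circ0003553 (adjusted p = 0.0471). With circ0004592 it was -1.78 ± 0.43 for HOXA7 (adjusted p = 0.00413), 0.71 ± 0.14 for HOXB3 (0.000758), 1.09 ± 0.38 for HOXB4 (0.0444) and -1.11 ± 0.27 for HOXB7 (0.00438). HOXA7 was the only one of these whose exons lie largely opposite another gene, HOXA-AS3. HOXB7 has a low count in PC3, 30 to 67 per library. The calls of HOXB4 and HOXC9 were lost when certain single controls were left out, as given above. Each circRNA was represented by 1 library in each line.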

How the results depend on the processing

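Pairing by replicate within a line was not possible. The sample titles carry no replicate numbers, and within a line each circRNA has only 1 control of its own arm. Blocks of arm and treatment pair the lines in the line comparison. Blocks of line and arm pair each circRNA library with its control over both lines. Counts of members past the threshold changed as follows. In the line comparison, 24 members passed, and 14 under a filter of 5 CPM, where fewer members were tested. For circ0003553 in PC3, 5 passed, and 2 with DESeq2 and 2 with limma on RPKM. For circ0004592 in PC3, 6 passed, and 2 with DESeq2 and 2 with limma on RPKM. For circ0003553 in DU145, 1 passed, 0 with limma on RPKM and 2 under a filter of 5 CPM; for circ0004592 there, 3 passed, and 0 with DESeq2 and 0 with limma on RPKM. For the difference between lines with circ0003553, 2 passed, 0 with DESeq2 and 1 each with TMM over all listed genes (chosen after seeing the data), no filter, a filter of 5 CPM and limma on RPKM. For that difference with circ0004592, 4 passed, 2 under a filter of 5 CPM and 1 with limma on RPKM. DESeq2 gave no adjusted p for 26 and 27 of 30 members in DU145 and for 14 and 10 in the differences. The cause of these changes was not tested. Whether the share of all tested genes that passed changed alike under each alternative is not given here. Leaving out 1 library each, the counts ranged over 5 to 6 and 4 to 6 in PC3, 0 to 2 and 0 to 5 in DU145, and 0 to 2 and 3 to 5 for the differences (circ0003553 first). No called value of a member changed sign under the alternatives run. Members near the floor of 0.117 to 0.184 CPM are limited by depth.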
